A study of Mus musculus with 16 samples.

Results

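The regions described here are places in the mouse genome where Cbx3 was listed in both of its chromatin immunoprecipitation sequencing (ChIP-seq) libraries and where RNA polymerase II (Pol II) was listed as well. Listed windows of the first Cbx3 library (set 1) were joined where 200 bp or less lay between them. Regions were then chosen by untreated signal alone: an autosomal set 1 region was taken if it shared at least 1 bp with a merged region of the second Cbx3 library (set 2) and with a merged region of untreated Pol II. This gave 433 regions, which is 3.21% of the 13473 autosomal Cbx3 regions of both sets and 0.110% of all 394816 set 1 regions. They touched 445 of the 8094 autosomal untreated Pol II regions (5.50%), and no region off the autosomes met the rule. They are called the Cbx3-Pol II regions.

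Cbx3 (HP1 gamma) is a chromodomain protein that binds histone H3 methylated at lysine 9. It is known from heterochromatin, where it is linked to silencing, and also from the bodies and promoters of transcribed genes. Mediator is the large coactivator that connects DNA-bound factors with Pol II. Its subunit Med26 is known for recruiting elongation factors to Pol II, and Cdk8 is the kinase of a module that attaches to Mediator reversibly.

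All cells were neural progenitor cells derived from V6.5 mouse embryonic stem cells, by way of embryoid bodies kept for 4 days, and were fixed in 1% formaldehyde. Untreated cells gave 2 Cbx3 libraries and 1 Pol II library. In the siRNA arms, cells had received luciferase siRNA (control) or Cbx3 siRNA for 72 hours, and each arm gave 1 library per antibody (Med26, Cdk8, Pol II). A difference between the arms therefore cannot be set against replicate spread, and p-values are left out. V6.5 is a single embryonic stem cell line, the labels name no separate cultures and no particular form of Pol II for its antibody, and the level of Cbx3 after the siRNA was not analysed here. A region is said to be listed in a library when at least 1 of that library's deposited 50 bp windows overlaps it, and its level is the authors' signal in its highest window. Levels are compared only between the 2 arms of 1 antibody. The 9 libraries listed from 2698 windows (Med26, Cbx3 siRNA) to 871245 windows (Cbx3 set 1) on the autosomes, and their total reads are unknown. The files hold only windows above a minimum, so a region that is not listed can hold signal below it. Coordinates are those of the files, whose build is mm9. Gene annotation of that build was not used here, and regions are given by position.

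The values that chose the regions come first, as a description without a test. The 433 regions were from 50 to 3900 bp wide, with a median of 400 bp, and 9 of them were single windows. The highest Cbx3 set 1 window had a median signal of 66.8 (from 31.3 to 1430) and the highest set 2 window a median of 18.6 (from 8.55 to 1069, in the 431 regions with a set 2 window inside). The highest untreated Pol II window had a median of 17.4 (from 9.23 to 168). The 13040 Cbx3 regions of both sets without untreated Pol II were narrower, with a median of 200 bp, and had a median set 1 signal of 44.1 and set 2 signal of 16.4. A wider region has more chance to touch Pol II, so the rule itself favours width. Across the 433 regions the signals of the 2 Cbx3 sets had a Spearman correlation of 0.39, while Cbx3 set 1 and untreated Pol II had one of 0.07.

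The overlap with Pol II regions was a median of 150 bp and came to 50 bp in 110 regions. Among those at the threshold were chromosome 1 from 54495851 to 54495950 (Cbx3 set 1 signal 64.7, untreated Pol II 16.9), from 59741851 to 59741900 (53.8 and 21.3) and from 107890551 to 107890600 (46.8 and 11.9). Just outside it were Cbx3 regions with 0 bp between them and a Pol II region, such as chromosome 1 from 34067951 to 34068400, from 55144651 to 55144850 and from 58026901 to 58027200, with Cbx3 set 1 signals of 67.7, 72.0 and 75.4. The region from 55144651 held control Med26 at 38.7 and control Pol II at 37.7. Those from 34067951 and 58026901 held control Pol II at 22.4 and 31.9, with neither Med26 nor Cdk8 listed in either arm. Regions just outside the rule can thus hold Pol II of the siRNA arms, as those inside it do.

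The distance between the highest points of Cbx3 and Pol II is limited by the rule, which required their regions to overlap, and is given as a description. The highest Cbx3 set 1 window lay a median of 150 bp from the highest window of the touched Pol II region, within 250 bp in 349 of 433 regions (80.6%). The highest windows of the 2 Cbx3 sets lay a median of 50 bp apart and within 250 bp of each other in 385 of 431 regions (89.3%). In 256 regions (59.1%) at least 1 window was listed in both Cbx3 sets and in untreated Pol II at once. All intervals on shares are 95% Wilson intervals and cover counting of regions only, since regions are not replicates.

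Around the highest Cbx3 window the listing fell off within about 1 kb in every library. Cbx3 set 1 was listed at 13.4% of positions 500 bp away and at 3.93% of those 1000 bp away, averaged over both sides. Control Pol II fell from 82.7% at the centre to 21.1% at 500 bp and 4.16% at 1000 bp. The Cbx3 regions without Pol II were the narrower near the centre, with set 1 listed at 16.0% of positions 200 bp away and 9.68% of those 500 bp away, against 28.2% and 13.4% in the Cbx3-Pol II regions. Farther out the order turned, with 7.87% at 1000 bp and 4.92% at 3000 bp, against 3.93% and 1.85%. Cbx3 set 1 was listed over a wider stretch in the Cbx3-Pol II regions, with fewer listed windows beyond it. The rule itself favours wider regions, and the centring uses set 1. This shape is therefore a description and gives no link between Cbx3 width and Pol II.

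**Figure D1:**
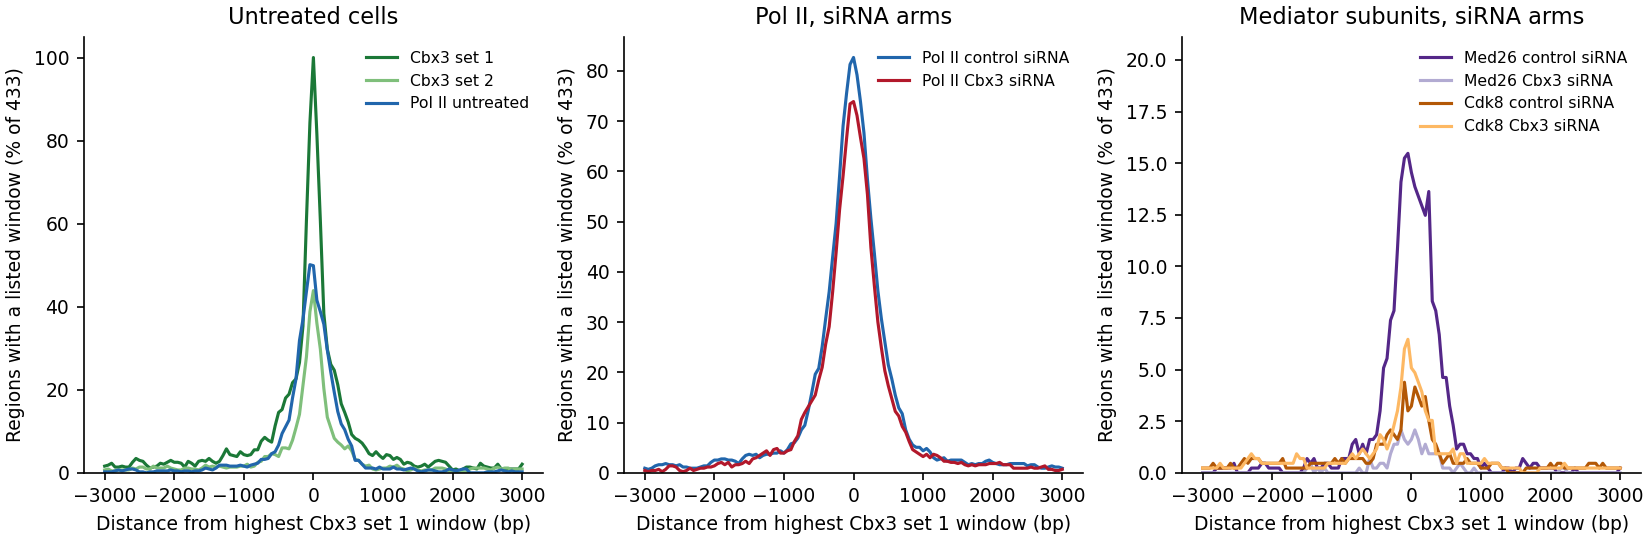
Share of the 433 Cbx3-Pol II regions with a listed window (y axis, %) by distance in bp from the highest Cbx3 set 1 window (x axis), 1 line per library and a y scale of its own in each panel. Control Pol II stands at 82.7% at the centre and Cbx3 siRNA Pol II at 73.9%, while control Med26 peaks at 15.5%.

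The regions were spread over all 19 autosomes, mostly as single sites. Neighbouring regions lay a median of 3.05 Mb apart, and the closest pair were separated by 250 bp. Chromosome 8 held the most (42 of its 855 Cbx3 regions of both sets, 4.91%, interval 3.65 to 6.57%), and chromosome 19 the highest share (16 of 290, 5.52%, interval 3.42 to 8.77%). Chromosome 10 had the lowest share (15 of 777, 1.93%, interval 1.17 to 3.16%), against 3.21% over all autosomes. Among the 19 chromosomes, the intervals of 8, 19 and 9 (33 of 728, 4.53%, interval 3.25 to 6.30%) lay above the overall share and that of 10 lay below it. Taken over untreated Pol II regions the order differed. The share that touched a Cbx3-Pol II region was 5.56% on chromosome 19, against 5.50% over all autosomes. It was 7.30% on 8, 7.80% on 9 and 3.56% on 10, and highest on 14, at 8.30%.

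A group of 6 regions stood far above the rest in Cbx3, and some later results are also given without them. Their Cbx3 set 1 signals were from 352 to 1430, over 5 times the median, while the next region had 249. Their positions were chr17:39979851-39983750, chr17:39984351-39985900, chr15:74915851-74917600, chr3:5860501-5860950, chr11:108872851-108873750 and chr5:147072501-147073000. Cbx3 set 2 was also high in all of them, at 188 or more, against at most 157 elsewhere. Cdk8 was listed under control siRNA in 5 of the 6, at 92.7 to 425, while its control signal reached no more than 34.9 in any other region. Control Pol II was listed in only the 2 regions on chromosome 17, at 158 and 142, although untreated Pol II had chosen all 6. After Cbx3 siRNA Pol II was listed in 4 of the 6, the others being chr3:5860501-5860950 at 76.7 and chr11:108872851-108873750 at 60.3. The signal of several antibodies was high at these sites together. The input libraries were not used here, and the part of signal not particular to an antibody was not tested.

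Pol II of the siRNA arms, which the rule did not use, was found at nearly all of the regions. Control Pol II was listed in 419 of 433 (96.8%, interval 94.6 to 98.1%) and Cbx3 siRNA Pol II in 414 (95.6%, interval 93.2 to 97.2%). In the Cbx3 regions of both sets without untreated Pol II these shares were 3.50% and 3.12%. Untreated Pol II regions that touched no Cbx3-Pol II region were listed in 94.7% and 91.2%, or 95.9% and 93.3% when weighted to the same Pol II signal and width. Those that did touch one had 94.6% (interval 92.1 to 96.3%) and 93.9% (interval 91.3 to 95.8%), so the shares were near those of other Pol II regions. Pol II was listed over 131 kb of the regions in the control and over 118 kb after Cbx3 siRNA. Across 419 regions, which share their Pol II antibody, the untreated and control Pol II signals had a Spearman correlation of 0.60. In 405 regions both arms were listed, in 14 the control alone, in 9 Cbx3 siRNA alone and in 5 neither.

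Among those 405 regions the Pol II signal was mostly lower after Cbx3 siRNA. The highest window had a median of 29.7 in the control and 24.1 after Cbx3 siRNA. On the log2 scale the arms differed by a median of -0.31 (Cbx3 siRNA less control, 95% interval of the median, from order statistics, -0.36 to -0.26), and 325 of 405 regions were lower. A fall of 1.5-fold or more was seen in 86 regions (21.2%, interval 17.5 to 25.5%), and a rise of that size in 4 (0.988%). Over all set 1 Cbx3 regions with Pol II in both arms, measured the same way, a fall was called in 23.4% and a rise in 1.80%. Over all Pol II regions of either arm with both listed, the shares were 21.5% and 2.17%, and the median log2 difference was -0.29 (interval -0.30 to -0.28). The share of falls and the median at the Cbx3-Pol II regions were thus near those over all Pol II regions. Pol II levels of the 2 arms overlapped widely, with 7.63 to 158 in the control and 7.26 to 162 after Cbx3 siRNA. Of the 424 control Pol II regions that touched a Cbx3-Pol II region, 409 were listed again (96.5%, interval 94.2 to 97.8%), against 68.1% of all control Pol II regions. The other control Pol II regions at untreated Pol II, weighted to the same signal and width, were listed again in 97.3%, inside that interval.

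The 5 largest falls began with chromosome 2 from 173935401 to 173936100, where Pol II went from 20.3 to 7.77 (log2 -1.39). On chromosome 11 from 72951701 to 72951950 it went from 39.7 to 16.1, and on chromosome 14 from 119105451 to 119105550 from 25.4 to 10.3. Chromosome 3 from 40887401 to 40887750 (48.6 to 21.2) and chromosome 7 from 123450801 to 123451200 (35.8 to 15.7) followed. None of these 5 regions was listed for Cdk8, and the first 2 held control Med26, at 6.79 and 10.2, that was not listed after Cbx3 siRNA. The largest rise was on chromosome 7 from 100023701 to 100023900, from 11.5 to 20.9 (log2 0.86). Chromosome 3 from 32607701 to 32607900 rose from 17.6 to 27.2 and from 89576951 to 89577550 from 23.7 to 36.4. All 4 rises past 1.5-fold had untreated Pol II signals of 12.9 to 18.5, against a median of 17.4 over all 433.

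Among the sites with the highest control Pol II, most were lower as well, though a choice by control signal favours falls. Chromosome 4 from 131825801 to 131825900, with Pol II at 113 in the control, had 87.0 after Cbx3 siRNA (log2 -0.38). Chromosome 17 from 34256101 to 34256800 had 98.7 and 84.6, and chromosome 8 from 23969551 to 23970500 had 94.5 and 77.2. Chromosome 9 from 120842151 to 120843100 fell further, from 106 to 68.7 (log2 -0.63). The 2 chromosome 17 regions of very high Cbx3 were not lower, with Pol II at 158 and 162 in the longer and 142 and 147 in the shorter. The regions chr3:5860501-5860950 and chr11:108872851-108873750, high in untreated Pol II at 80.7 and 52.3, were listed after Cbx3 siRNA and not in the control. Sorted into 4 equal classes by untreated Pol II signal, the regions had median log2 differences of -0.25, -0.43, -0.28 and -0.29 from the lowest to the highest class. Sorted by Cbx3 set 1 signal they had -0.36, -0.31, -0.37 and -0.23. Neither order ran in 1 direction, and the class with the most Cbx3 had the smallest fall of the 4 (interval -0.30 to -0.18). Sorted by control Pol II signal, the medians were -0.12, -0.20, -0.36 and -0.39 and did run in 1 direction. Control signal is part of the difference, so this sorting favours such an order.

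**Figure D2:**
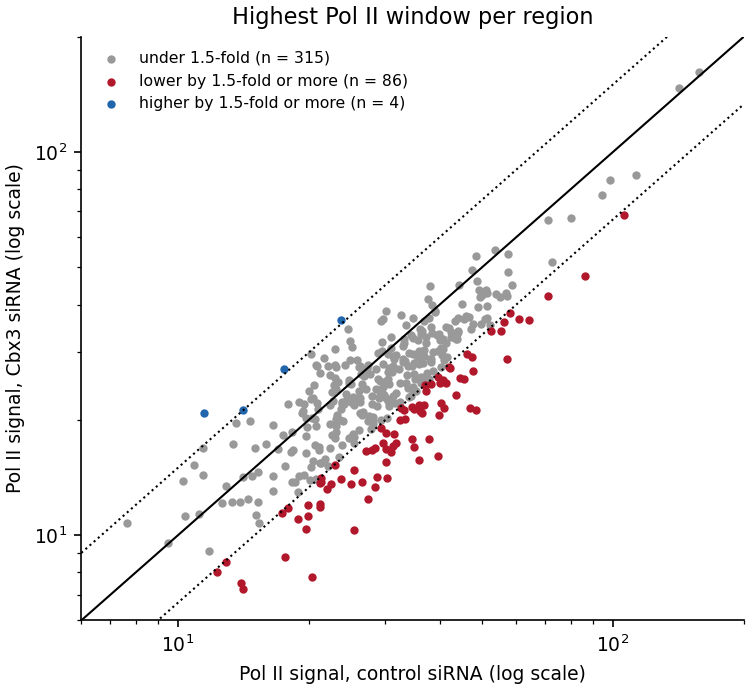
Highest Pol II window of each region under control siRNA (x axis) and Cbx3 siRNA (y axis), both as deposited signal on log scales, for the 405 regions listed in both arms. The solid line marks equal signal and the dotted lines 1.5-fold, with 86 regions on or below the lower and 4 above the upper.

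Under control siRNA, Med26 was the Mediator subunit more often found at these regions, and it was listed at far fewer of them after Cbx3 siRNA. Control Med26 was listed in 187 of 433 (43.2%, interval 38.6 to 47.9%), at a median signal of 10.5, and Med26 after Cbx3 siRNA in 38 (8.78%, interval 6.46 to 11.8%), at 8.55. It was listed over 25.3 kb in the control and 3.05 kb after Cbx3 siRNA. Of the 187 regions, 31 were also listed after Cbx3 siRNA (16.6%, interval 11.9 to 22.6%), and 7 regions were listed after Cbx3 siRNA alone. Of the 194 regions with Med26 in either arm, 156 were listed in the control alone (80.4%), against 83.2% of all set 1 Cbx3 regions with Med26 and 75.3% of all Med26 regions of either arm. Cbx3 siRNA alone accounted for 3.61% (interval 1.76 to 7.26%), against 6.95% and 15.1%. The loss from the list at the Cbx3-Pol II regions was near that at all set 1 Cbx3 regions. Single windows made up 66 of the 187 control listings and 24 of the 38 after Cbx3 siRNA.

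Med26 sites that stayed listed had the higher control signal. The 31 regions of both arms had a median control Med26 signal of 14.3, against 10.1 in the 156 listed in the control alone. Only windows above a minimum are listed, so a site of higher control signal can fall further and stay listed. The listing itself therefore favours this order. Measured on Med26 control regions, 31 of the 195 that touched a Cbx3-Pol II region were listed again (15.9%, interval 11.4 to 21.7%), against 8.63% of all 5946. When the other Med26 regions at untreated Pol II were weighted to the same classes of control signal and width, 14.3% were listed again, within that interval. In the 31 regions of both arms the median log2 difference was -0.69 (interval -0.78 to -0.40), and 27 of 31 were lower. A fall of 1.5-fold or more was seen in 19 of the 31 (61.3%, interval 43.8 to 76.3%), against 51.9% over all set 1 regions and 53.6% over all Med26 regions. No region rose that far, here or in either background (0%).

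Single sites show the range. Chromosome 8 from 23969551 to 23970500 had Med26 at 38.5 in the control and 26.2 after Cbx3 siRNA. On chromosome 6 from 40275451 to 40275750 Med26 went from 34.8 to 16.9, and there Pol II also went from 30.3 to 14.1. On chromosome 2 from 154198051 to 154198600 it went from 32.8 to 19.1, and on chromosome 17 from 3084101 to 3084850 from 34.8 to 21.2. Chromosome 8 from 72178501 to 72178750 had the largest fall of those listed in both arms, from 22.6 to 7.80 (log2 -1.54). Chromosome 1 from 90173501 to 90174250 (23.1) and from 137662651 to 137663000 (21.3) and chromosome 19 from 60302351 to 60302600 (19.8) were high in the control and not listed after Cbx3 siRNA. Med26 was higher after Cbx3 siRNA in 4 of the 31 regions, among them chromosome 8 from 13869601 to 13869900 (13.9 to 17.6) and chromosome 5 from 100858351 to 100858700 (13.5 to 14.7).

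The Pol II difference was smaller where Med26 stayed listed, but the intervals overlap. Regions with Med26 in the control alone had a median log2 Pol II difference of -0.32 (interval -0.42 to -0.24, n = 151). Regions with no control Med26 also had -0.32 (interval -0.37 to -0.26, n = 224). Regions with Med26 in both arms had -0.18 (interval -0.36 to -0.12, n = 30). The difference between these groups was not tested.

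Cdk8 was listed at fewer regions than Med26 in the control and at more of them after Cbx3 siRNA. It was found in 44 of 433 in the control (10.2%, interval 7.66 to 13.4%) and in 71 after Cbx3 siRNA (16.4%, interval 13.2 to 20.2%). The intervals of the 2 shares overlap slightly. Without the 6 regions of highest Cbx3 the counts were 39 and 65 of 427. Of the 99 regions with Cdk8 in either arm, 55 were listed after Cbx3 siRNA alone (55.6%, interval 45.7 to 65.0%), against 46.6% over all set 1 Cbx3 regions with Cdk8 and 48.7% over all Cdk8 regions of either arm. The control alone accounted for 28 (28.3%, interval 20.4 to 37.8%), against 37.2% at all set 1 regions, just inside the interval, and 44.1% of all Cdk8 regions of either arm, above it. At the Cbx3 regions without Pol II the number did not move, with 212 and 211 of 13040. At the 2614 set 1 regions with Pol II that set 2 did not list, it rose as well, from 148 (5.66%) to 211 (8.07%). Untreated Pol II regions that touched no Cbx3-Pol II region held Cdk8 in 4.54% and 6.48%. Over all autosomes the Cdk8 regions numbered 5544 in the control and 6048 after Cbx3 siRNA.

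Few Cdk8 sites were the same in both arms. Cdk8 of both arms was listed in 16 of the 44 control regions (36.4%, interval 23.8 to 51.1%), or in 11 of 39 without the 6 regions of highest Cbx3 (28.2%). Counted on Cdk8's own regions, 7 of 44 overlapped a Cdk8 region of the other arm (15.9%, interval 7.93 to 29.4%), against 11.3% of all 5544. Weighted to the same control signal and width, all other Cdk8 regions had 29.1%, inside that interval, and those at untreated Pol II had 29.6%, just above it (22.2% unweighted). The interval also includes the 11.3% of all Cdk8 regions and the unweighted 22.2%, so the share cannot be told apart from these. Only the weighted share at untreated Pol II lay outside it. Of the 6 regions of highest Cbx3, 5 were listed for Cdk8 in both arms, and the share of 7 of 44 was not computed without them. With 16 counted by Cbx3 region and 7 by Cdk8 region, the 2 arms often listed different windows of 1 Cbx3 region. In the 16 regions the median log2 difference was -0.02 (interval -0.28 to 0.32), with 8 lower. A fall of 1.5-fold was seen in 2 and a rise in 1, against 8.70% and 15.2% over all set 1 regions and 10.6% and 12.1% over all Cdk8 regions. Single windows made up 34 of the 71 listings after Cbx3 siRNA and 15 of the 44 in the control.

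Outside the 6 regions of highest Cbx3, Cdk8 was low throughout. The highest control value was 34.9 on chromosome 19 from 24299501 to 24299750, which was not listed after Cbx3 siRNA. On the same chromosome from 55390851 to 55391250 Cdk8 had 30.5 and 21.3, and on chromosome 1 from 36568151 to 36568850 17.8 and 11.1. Among those listed after Cbx3 siRNA alone were chromosome 9 from 117949601 to 117950200 (15.9) and chromosome 7 from 140122601 to 140122800 (15.5). The 1 rise past 1.5-fold was at chr4:133369551-133369700, where Cdk8 had 8.41 in the control and 15.9 after Cbx3 siRNA and Pol II had 21.2 and 13.7.

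**Figure D3:**
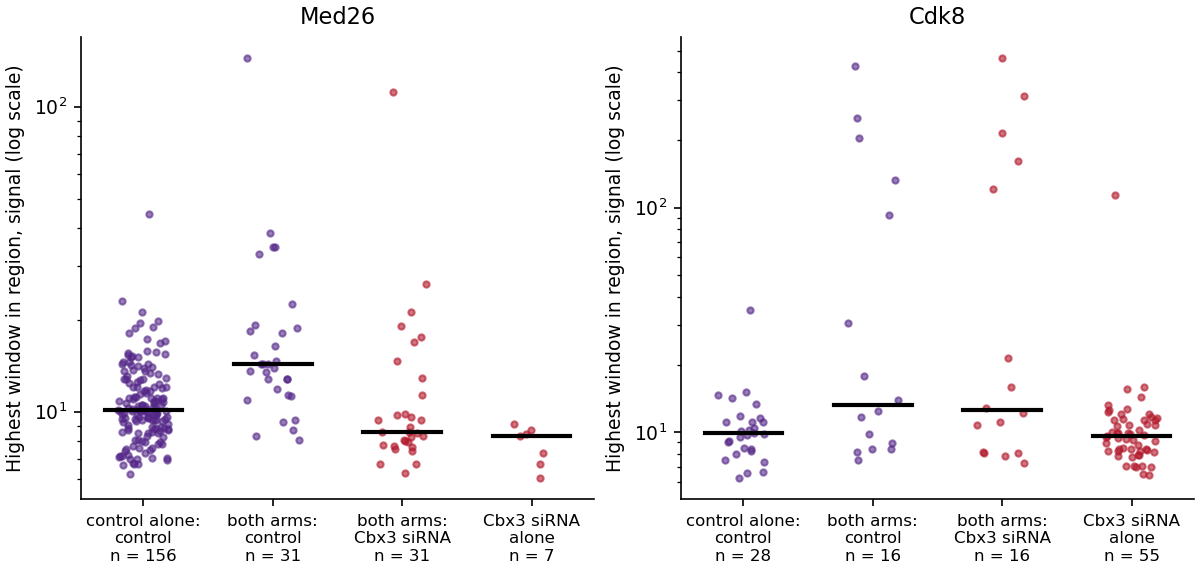
Highest Med26 (left) and Cdk8 (right) window in each region, as deposited signal on a log y axis, for regions listed in the control alone, in both arms (control and Cbx3 siRNA values shown apart) and after Cbx3 siRNA alone. Each point is a region and the bars are medians; Med26 has 156 regions in the control alone and 7 after Cbx3 siRNA alone, Cdk8 has 28 and 55.

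Few regions were listed for both Med26 and Cdk8, and in the control Cdk8 was about as frequent with Med26 as without it. In the control, 20 regions held both, 167 Med26 alone, 24 Cdk8 alone and 222 neither. Cdk8 was listed in 10.7% of the regions with Med26 (interval 7.03 to 15.9%) and in 9.76% of those without (interval 6.64 to 14.1%), and the intervals overlap widely. After Cbx3 siRNA 5 regions held both. There Cdk8 was listed in 13.2% of the regions with Med26 (interval 5.75 to 27.3%) and in 16.7% of those without (interval 13.4 to 20.7%). In 171 regions (39.5%) Pol II was listed in both siRNA arms and neither Mediator subunit in either. Regions listed in all 9 libraries numbered 3, namely the longer chromosome 17 region named above and chromosome 3 from 97817151 to 97817750 and from 90035501 to 90035850. On chromosome 3 from 97817151 Med26 had 14.3 and 9.39, Cdk8 8.15 and 12.2, and Pol II 44.0 and 36.9 in the control and Cbx3 siRNA arms. From 90035501 Med26 had 14.3 and 8.11, Cdk8 11.7 and 7.28, and Pol II 33.7 and 26.2.

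Cbx3 regions with Pol II held Mediator far more often than those without. Control Med26 was listed in 0.537% and control Cdk8 in 1.63% of the 13040 Cbx3 regions without Pol II. The 2614 set 1 regions with Pol II that set 2 did not list had 30.0% and 5.66%, below the 43.2% and 10.2% of the Cbx3-Pol II regions. The set 1 regions were measured over their own widths, and wider regions have more room for a listed window. In a fixed span of 500 bp around the highest Cbx3 window, control Med26 was listed at 48.0% of the Cbx3-Pol II regions (interval 43.4 to 52.7%) and at 46.3% of the set 1 regions with Pol II alone. For control Cdk8 the shares in this span were 12.0% (interval 9.28 to 15.4%) and 10.7%. For these 2 libraries the gap was inside the counting interval once the span was equal. Cdk8 after Cbx3 siRNA had 17.8% (interval 14.5 to 21.7%) against 14.5%, at the edge of the interval, and control Pol II had 95.8% (interval 93.5 to 97.4%) against 98.9%, above it.

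**Figure D4:**
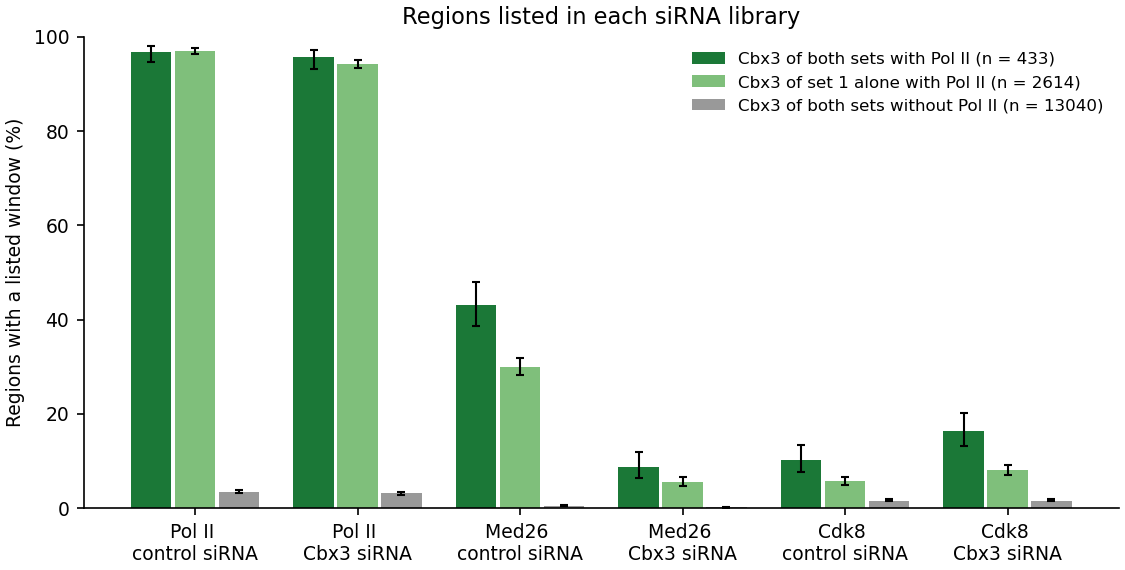
Share of regions with a listed window (y axis, %, bars from 0) in each of the 6 siRNA libraries, with 95% Wilson intervals as error bars, for Cbx3 regions of both sets with Pol II (433), of set 1 alone with Pol II (2614) and of both sets without Pol II (13040). Pol II stands at 96.8% and 95.6% in the first group, and Med26 at 43.2% and 8.78%.

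The same comparison was made from the side of Pol II. Of the 445 untreated Pol II regions that touched a Cbx3-Pol II region, 42.5% held control Med26 (interval 38.0 to 47.1%) and 8.54% control Cdk8 (interval 6.28 to 11.5%). The other 7649 Pol II regions, weighted to the same classes of Pol II signal and width, held them in 37.1% and 5.35% of cases. Both weighted values lie below the intervals. Against only those other Pol II regions with no Cbx3 of set 1, the weighted values were 35.6% and 4.67%, and against those with Cbx3 of set 1 alone they were 39.0%, inside the Med26 interval, and 6.06%, below the Cdk8 interval. Without the 6 regions of highest Cbx3 the share with Cdk8 was 6.67% (interval 4.68 to 9.41%), which includes the 5.36% of the others, while Med26 had 43.0% (interval 38.4 to 47.7%) against 37.0%. The gap in Cdk8 was inside the interval without those 6 regions, and that in Med26 was not. The mean log2 Pol II difference between arms was -0.31 at these Pol II regions and -0.32 at the others, weighted or not.

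Within the Cbx3-Pol II regions, Cdk8 was listed more often in the class of highest Cbx3 set 1 signal than in the lowest, a gap that narrowed without the 6 regions of highest Cbx3. In the fixed span of 500 bp, control Cdk8 was listed in 5.56%, 9.26%, 13.8% and 19.4% of 4 equal classes from lowest to highest Cbx3 set 1 signal. The intervals of the lowest (2.57 to 11.6%) and highest (13.1 to 27.9%) class do not overlap. After Cbx3 siRNA the shares were 9.26%, 17.6%, 18.3% and 25.9%, in the same order. This Cdk8 library is of the other arm and was scored on the same regions, so it is not a replicate. Control Med26 was listed in 52 of 108, 49 of 108, 53 of 109 and 54 of 108 regions of these classes. Med26 after Cbx3 siRNA had 7.41%, 11.1%, 8.26% and 13.9%, with overlapping intervals, and control Pol II between 94.4% and 98.1%. Without the 6 regions of highest Cbx3 the top class had 15.7% for control Cdk8 (interval 9.89 to 24.0%) and 21.6% after Cbx3 siRNA (interval 14.7 to 30.5%), whose intervals overlap those of the lowest class. Sorted by Cbx3 set 2 signal, control Cdk8 had 10.2%, 9.35%, 13.0% and 15.7%, a smaller spread, with overlapping intervals. Cdk8 after Cbx3 siRNA had 11.1%, 14.0%, 24.1% and 21.3% over these classes, highest in the third, and its intervals overlap as well. Med26 after Cbx3 siRNA had 7.41%, 7.48%, 11.1% and 14.8% over the same classes, also with overlapping intervals.

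Other Cbx3 regions, divided at the same limits of set 1 signal, also had the highest Cdk8 share in the top class. Set 1 regions with Pol II but without set 2 had control Cdk8 at 9.92%, 9.38%, 11.9% and 18.6%, with Med26 at 46.1%, 47.9%, 45.8% and 42.9%. Cbx3 regions of both sets without Pol II had Cdk8 at 0.667%, 2.87%, 4.37% and 14.8%. A higher Cdk8 share at high Cbx3 signal was thus seen in regions without Pol II too. High Cbx3 signal also marks the sites where several antibodies were high together, and the part of that in this order was not tested.

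**Figure D5:**
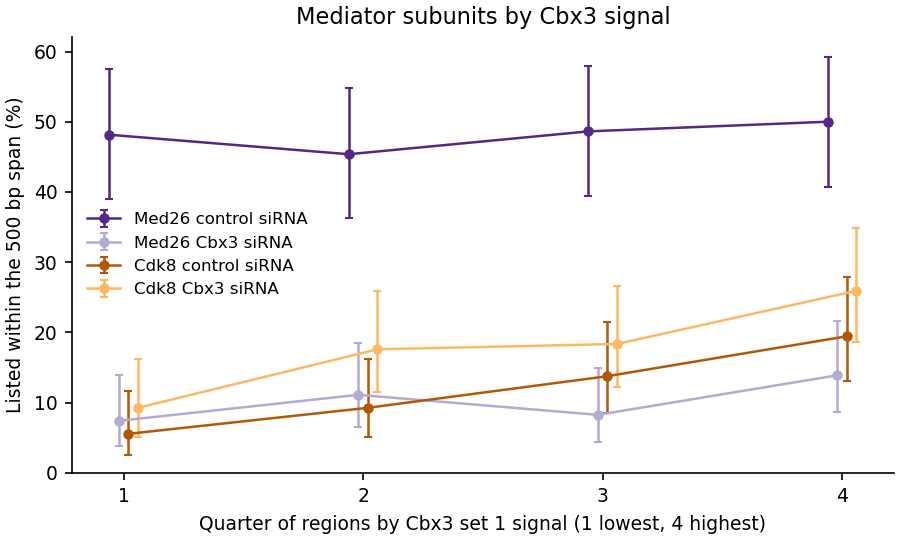
Share of regions with Med26 or Cdk8 listed within 500 bp around the highest Cbx3 window (y axis, %) in 4 equal classes of the 433 regions by Cbx3 set 1 signal (x axis), with 95% Wilson intervals. Control Cdk8 goes from 5.56% to 19.4% while control Med26 stays between 45.4% and 50%.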

How the data were processed

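Per the submitters' processing notes, reads were handled with Bowtie and the genome build mm9. How windows were tested against inputs, and at which threshold, is not stated in the sources used here. The deposited signal, 1 value per listed 50 bp window, was used as the authors gave it. Values were whole multiples of 1 step per library (to within 0.05 of a step), with an equal step in both arms of each antibody; the depth per library is unknown. The 7 input samples of the 16 in the series were not used here.

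Windows up to 200 bp apart were merged, and regions overlapped from 1 bp. Regions have Wilson intervals for shares and order-statistic intervals for medians, both at 95%. Weighted shares average classes of signal (5) and width. The weights are the class sizes of the Pol II, Med26 or Cdk8 regions that touched a Cbx3-Pol II region. A call is a difference of 1.5-fold or more in the highest window. The overlap, merging and fold steps were tested on simulated data. Computation used matplotlib 3.10.9, scipy 1.17.1, pandas 2.3.3, numpy 2.4.6 and Python 3.11.15. The regions, comparisons and alternatives were chosen with earlier results of these data known. Named regions are drawn from the longest, the highest per library, the largest Pol II falls and rises, those in all 9 libraries and those nearest the overlap threshold.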

Additional observations from a re-analysis of the deposited data

Results flagged for a closer look

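Med26 and Cdk8 moved in opposite directions between the siRNA arms at the Cbx3-Pol II regions. The share of regions listed changed by -34.4 percentage points for Med26 and by 6.24 percentage points for Cdk8, Cbx3 siRNA minus control. The directions were not particular to these regions. Untreated Pol II regions that touched none of them went from 32.2% to 6.46% for Med26 and from 4.54% to 6.48% for Cdk8. Over all autosomes, Med26 regions went from 5946 to 1733 and Cdk8 regions from 5544 to 6048. Each arm had 1 library per antibody, and the difference between the 2 subunits was not tested. In the siRNA arms the labels name separate inputs for Med26, while the further input of each arm names no antibody. Preparation and subunit therefore cannot be told apart.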

How the results depend on the processing

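Of 103 values recomputed under an alternative, 82 stayed within the interval of the reported value (for counts, within 1.5 times). Counts and shares have no direction to change. The median log2 Pol II difference, which has one, stayed negative under each alternative tried. The cause of the changes past these limits was not tested. With each list cut at its median signal, 225 regions met the rule and Pol II was listed after Cbx3 siRNA in 98.2%. With either Cbx3 library left out, the regions numbered from 729 (set 2 alone) to 3047 (set 1 alone). Their listed shares in the control and Cbx3 siRNA arms were 25.7 to 31.9% and 5.49 to 6.04% for Med26, 4.80 to 6.30% and 7.41 to 9.26% for Cdk8, and 95.3 to 97.0% and 93.1 to 94.5% for Pol II. With set 2 regions as the base, 303 regions held control Med26 in 31.7% and Cdk8 in 6.93% (control) and 10.6% (Cbx3 siRNA). Counted over the union with the touched Pol II regions, control Med26 was listed in 50.8% and Cbx3 siRNA Pol II in 97.5%. At a fold of 2, 13 regions fell and 0 rose in Pol II, and with the mean of listed windows 2 rose by 1.5-fold. Leaving out the 6 regions of highest Cbx3 was chosen after seeing the data. No paired analysis was possible because no antibody has more than 1 library in an arm. Few windows per region limit Cdk8 and Med26 after Cbx3 siRNA.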
